A study of Mus musculus with 6 samples.

Results

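The matrix metalloproteinases (Mmp genes), the Adamts proteases and the tissue inhibitors of metalloproteinases (Timp genes) were followed in whole skin of mice that lack the AP-1 subunit JunB in the epidermis. The genes were taken by symbol, as Mmp with a number and an optional a or b, Adamts with a number, or Timp1 to Timp4. This rule found 46 of the 23951 genes measured, of which 23 are Mmp, 19 are Adamts and 4 are Timp genes. RNA sequencing of poly(A) RNA had been done on 3 JunBΔep mice and 3 JunB +/+ controls, all C57Bl/6. The labels give an age of 6 to 7 months, and the design text calls the mice littermates without saying which of them shared a litter. In JunBΔep mice, written JunB dep in the labels, the Junb gene is deleted in cells that express keratin 5, which are the basal keratinocytes. Fibroblasts, blood cells and vessels of the skin keep Junb. Mice of both sexes were used in the study, and the JunBΔep skin carried lesions.

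Mmps are zinc enzymes that cut collagens, elastin, laminins and many other proteins outside the cell, and most are secreted as inactive precursors. Adamts enzymes are related secreted proteases that cut proteoglycans such as versican, trim the ends of procollagens or process von Willebrand factor. The 4 Timp proteins bind the active site of Mmps and block it. In skin these genes are known from wound repair, hair growth and inflammation, and several Mmp genes are textbook targets of AP-1, the factor that JunB forms with a Fos or another Jun protein.

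The members showed 1 mouse that stood apart and few differences shared by all 3 JunBΔep mice. JunBΔep replicate 0 held the highest level of 16 of the 39 members that could be tested (41.0%, beside 29.7% of all tested genes) and the lowest of 9 (23.1%, beside 32.0%), so that it was at either end for 64.1% of the members and 61.7% of all genes, and 3 of the 16 could be tested only because of this mouse. In it, Mmp13, Mmp3, Mmp8, Mmp10 and Timp1 were far above the other 5 mice. Timp2 and Adamts5 were lower in all 3 JunBΔep mice than in every control, and Adamts15 and Adamts1 were higher, but none of the 46 members passed the test across all genes.

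Levels are FPKM, fragments scaled by transcript length and by the number of mapped fragments, so they can be compared between genes. Values of a gene are given for replicates 0, 1 and 2 in that order, with the replicate numbers of the labels. Fold changes are JunBΔep minus control in log2(FPKM + 0.5), a scale on which changes of weakly expressed genes look smaller than they are. They were tested with limma, with Benjamini-Hochberg adjusted p-values over the 17021 genes that averaged 0.1 FPKM or more. The test was two-sided with a threshold of 0.05. With 3 mice against 3, the smallest p an exact permutation test can reach is 0.1. The number of reads is unknown, since the table holds no counts. The FPKM values summed to 481078 to 630363 per mouse, and 18418 to 18873 genes were above 0.

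JunBΔep replicate 0 differed from the other libraries before any member was examined. Junb stood at 59.3, 72.4 and 56.9 FPKM in control skin. The library labelled JunBΔep replicate 0 held 129.6 FPKM of it, and JunBΔep replicates 1 and 2 held 42.8 and 28.1 FPKM. Its log2 fold change was -0.21 (SE 0.55, limma adjusted p = 0.901), or -0.84 without that library. JunBΔep replicates 1 and 2 were below every control, and JunBΔep replicate 0 was above them all. Keratins of mucosal epithelium marked the same library, with Krt4 at 1356 FPKM and Krt13 at 1990 FPKM against at most 0.938 FPKM for either gene elsewhere. The 5 mucosal markers summed to 3798 FPKM there and to 0.394 to 1.41 FPKM in the other 5 mice. Krt5, which marks basal keratinocytes, was at 1588 to 3725 FPKM in the 6 mice, while Krt14, S100a9 and Elane were listed at 0 in JunBΔep replicate 0. The neutrophil markers, of which 10 of 11 were found, summed to 24970 FPKM in this library, nearly all of it S100a8 at 24460 FPKM, and to 25.8 to 1897 FPKM in the others. Control replicate 0 carried liver transcripts, with 5 liver markers summing to 1428 FPKM against 0.908 to 21.0 FPKM in the other 5 mice, and Mpo at 32.0 FPKM against at most 0.0615 FPKM. Whether either sample held tissue other than skin was not tested. The main results are therefore given with and without JunBΔep replicate 0. Leaving out control replicate 0 instead moved the log2 fold changes of Mmp8 from 0.96 to 1.82, of Mmp9 from -0.00 to 0.46, of Mmp2 from 0.07 to 0.32 and of Mmp28 from 0.12 to 0.43, turned Mmp14 from -0.16 to 0.015 and Adamts13 from 0.09 to -0.11, and gave no member that passed. The numbers in the sample titles form 2 series, with JunBΔep replicate 0 and control replicates 0 and 1 in the lower one and the other 3 mice in the higher one, and what the series stand for is not said.

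Of the 46 members, 39 passed the filter and were tested. Without JunBΔep replicate 0, 4 of these fell below the filter (Mmp1b, Mmp10, Mmp13 and Mmp16). Mmp1b, Mmp10 and Mmp13 passed through that mouse alone. Mmp16 averaged 0.102 FPKM over all 6 mice, just above the filter, and was highest in control replicate 2, at 0.134 FPKM. A count over the tested members is therefore not a count over the family. The 7 members not tested were Adamts6, Adamts16, Mmp1a, Mmp7, Mmp20, Mmp21 and Mmp24, at no more than 0.167 FPKM in any mouse, and Mmp7 was listed at 0 in all 6.

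No member had a limma adjusted p below 0.05 in either direction. Across all 17021 genes the percentages called were 0 for higher and 1.38 for lower in JunBΔep skin. At an unadjusted limma p below 0.05, 1 member was higher (Adamts15) and 2 were lower (Timp2 and Adamts5). Among all genes 1.43% were higher and 6.13% lower by that rule. The groups did not overlap, with JunBΔep higher, for Adamts1, Adamts15 and Mmp13, which is 7.69% of the tested members against 5.62% of all genes. They did not overlap, with JunBΔep lower, for Adamts5, Adamts14 and Timp2, again 7.69% of the tested members against 9.16% of all genes. These shares were near those of all genes or rested on 1 to 3 members. The log2 fold change was above 0 in 26 of the 39 tested members and had a median of 0.12, beside 53.4% above 0 and a median of 0.03 over all genes. Without JunBΔep replicate 0 it was above 0 in 17 of the 35 members that could still be tested, and the median was -0.03.

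**Figure D1:**
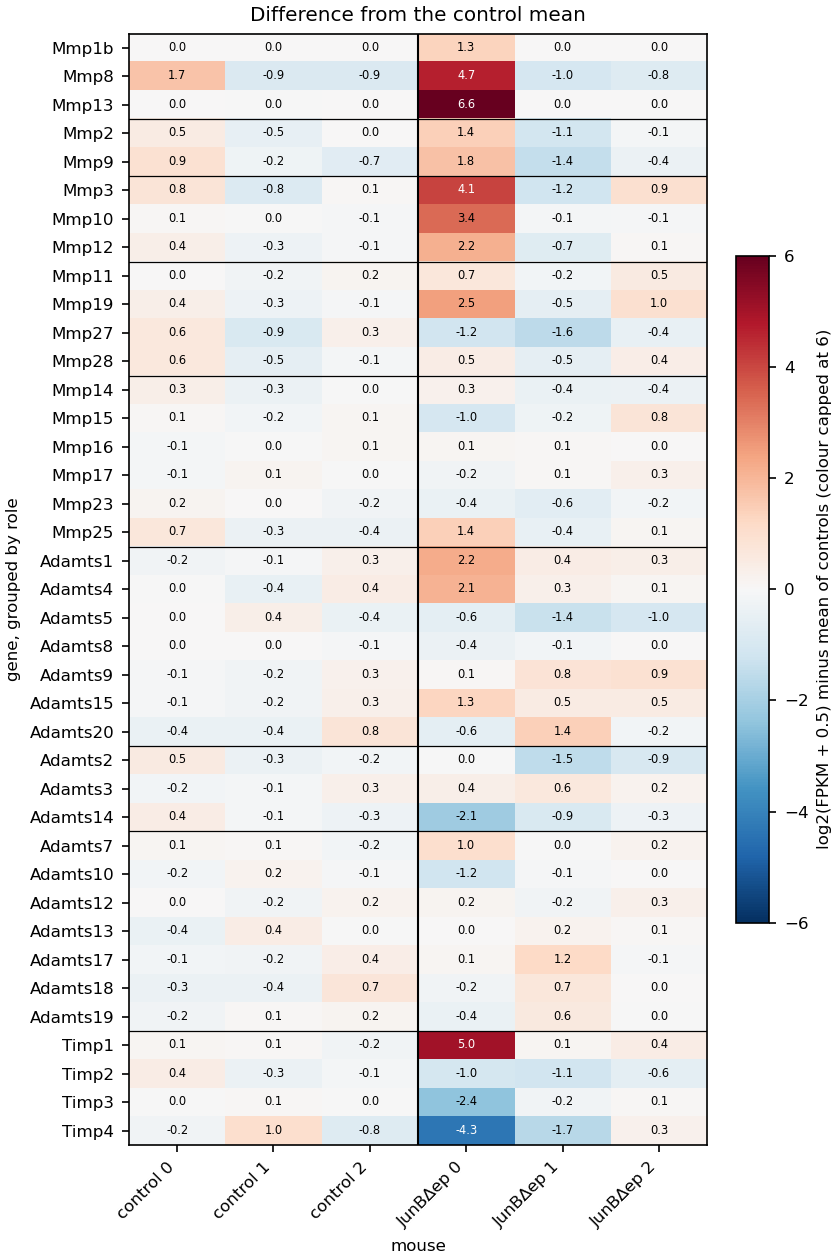
Difference of each mouse (columns) from the mean of the 3 controls for the 39 tested members (rows, in blocks by role), on the log2(FPKM + 0.5) scale, with colours capped at 6 and the value written in each cell. The column of JunBΔep replicate 0 holds the strongest colours in both directions, with Mmp13 at 6.6 and Timp4 at -4.3, and the column of JunBΔep replicate 2 is pale almost throughout.

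The 3 JunBΔep mice were unlike one another in these genes. JunBΔep replicate 0 lay more than 2-fold from the control mean for 22 of the 39 tested members (56.4%), which compares with 25.3% of all tested genes. JunBΔep replicate 1 did so for 11 members (28.2%, against 14.2% of all genes), and 9 of these 11 were below the control mean. JunBΔep replicate 2 did so for 1 member, Adamts5. The 22 members of JunBΔep replicate 0 include Mmp13, Mmp10 and Mmp1b, which passed the filter only through that mouse. Genes that fell below the filter without JunBΔep replicate 0 were 10.3% of the tested members and 1.15% of all tested genes. JunBΔep replicate 1 was also the lowest of the 6 mice for 15 members (38.5%, against 17.6% of all genes), among them Mmp2, Mmp3, Mmp9, Mmp14 and Timp2. The same mouse had the lowest FPKM total, 481078, and the lowest summed level in 7 of the 9 marker lists (neutrophil, macrophage, fibroblast, keratinocyte, mucosal, endothelial and skeletal muscle). Fibroblast markers, for example, summed to 735.8 FPKM against 934.7 to 2676 FPKM in the other mice. The part of the total or of any cell type in its low levels was not tested. In bulk skin, fewer cells of a type and less RNA per cell cannot be told apart.

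Taken as families, Mmp transcripts summed to 268.6, 145.3 and 188.4 FPKM in control skin and to 689.9, 114.6 and 195.8 FPKM in JunBΔep skin. Timp transcripts summed to 298.6, 246.4 and 225.1 FPKM in control skin and to 194.3, 136.3 and 204.7 FPKM in JunBΔep skin, each JunBΔep mouse below every control. Adamts transcripts summed to 69.3, 70.6 and 65.8 FPKM in control skin and to 95.2, 59.7 and 60.7 FPKM in JunBΔep skin. The Timp sum per Mmp sum was 1.11, 1.70 and 1.19 in control skin and 0.282, 1.19 and 1.05 in JunBΔep skin, so inhibitor transcripts outweighed Mmp transcripts in 5 of the 6 mice and fell well short of them in JunBΔep replicate 0. In control skin the most abundant members by mean level were Timp2 at 158.6 FPKM, Mmp2 at 70.1 FPKM, Mmp14 at 65.5 FPKM and Timp3 at 65.1 FPKM, and the last 3 overlapped in range.

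**Figure D2:**
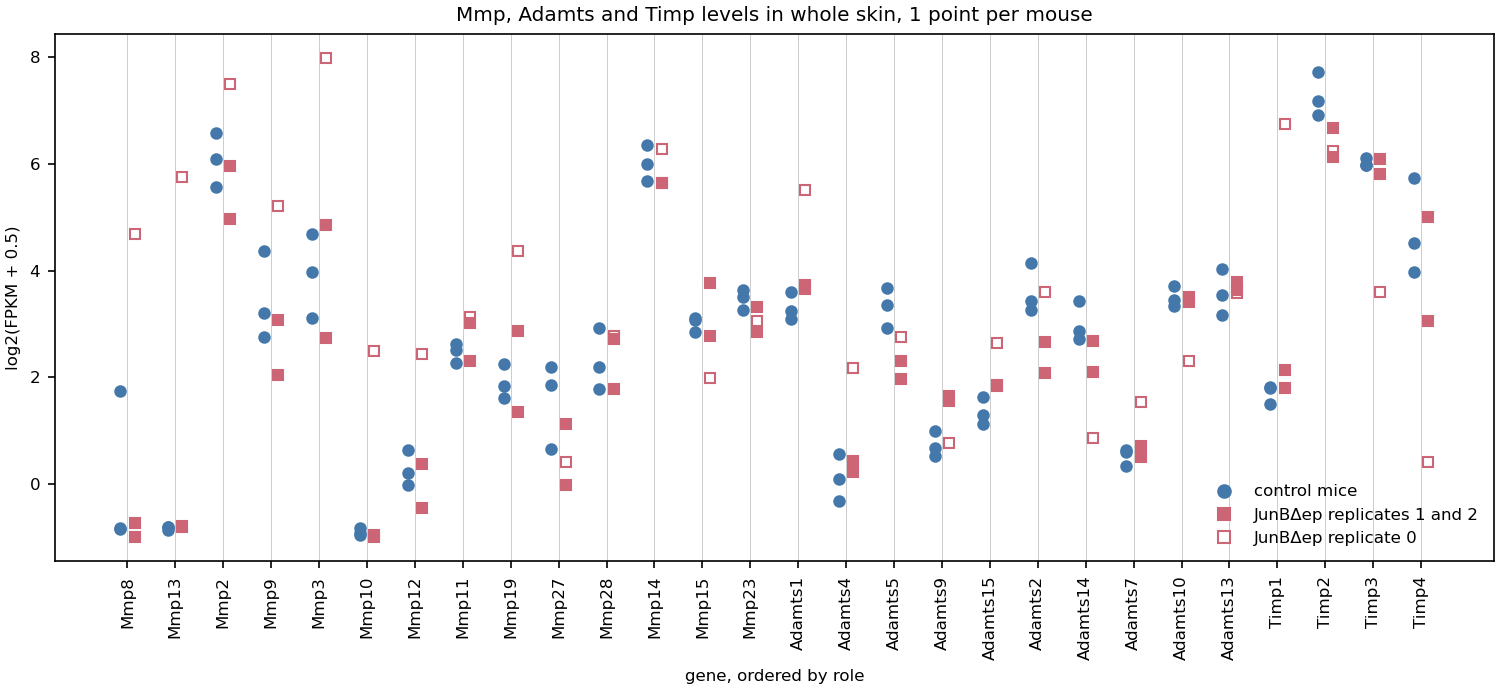
Level of the 28 members with a mean of at least 1 FPKM, at least 5 FPKM in any mouse, or an unadjusted p below 0.05, as log2(FPKM + 0.5), with 1 point per mouse and genes ordered by role. Open squares (JunBΔep replicate 0) lie far above all other points for Mmp8, Mmp13, Mmp3, Mmp10 and Timp1 and below them for Timp3 and Timp4.

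A cluster of 10 Mmp genes on chromosome 9 (mm9, from 7272514 to 7699585, 427 kb) was far higher in JunBΔep replicate 0 than in the other mice. In order along the chromosome they are Mmp13, Mmp12, Mmp1b, Mmp3, Mmp1a, Mmp10, Mmp8, Mmp27, Mmp20 and Mmp7, and they encode collagenases, stromelysins, the macrophage elastase and matrilysin. Together they summed to 33.3, 9.83 and 19.3 FPKM in control skin and to 345, 6.98 and 31.3 FPKM in JunBΔep skin. Of the 9 genes above 0 in any mouse, 7 were highest in JunBΔep replicate 0, and 3 of these (Mmp13, Mmp1b and Mmp10) passed the filter through that mouse alone. JunBΔep replicates 1 and 2 lay below and within the control range of 9.83 to 33.3 FPKM.

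AP-1 binds DNA at a 7-base motif, searched here as TGANTCA with N for any base, a pattern that reads the same on both strands. RefSeq start windows (from 250 bases before to 50 after a transcription start, table on build GRCm38.p6) were found for 32 of the 46 members, and each of their 35 windows matched mm9 in 1 place. Without a window were Adamts4, Adamts5, Adamts6, Adamts7, Adamts8, Adamts10, Adamts15, Adamts16, Adamts19, Mmp2, Mmp9, Mmp16, Mmp17 and Mmp19. The motif was in a window of 8 of the 10 genes in the chromosome 9 cluster and of 0 of the 22 members elsewhere. Over all genes with a window, 8.97% held it. The cluster genes are neighbours of the same family, so their windows may not be independent cases. The match was TGAATCA in Mmp20 and TGAGTCA or TGACTCA in the other cluster genes that held it. In the cluster the motif began 35 to 95 bases before the start, at 35 in Mmp13, 44 in Mmp12, 46 in Mmp3, 63 in Mmp10 and Mmp7, 73 in Mmp1a, 93 in Mmp1b and 95 in Mmp20, and in Mmp12 and Mmp7 it was in 1 of their 2 windows. The 100 bases before the start are shown for 5 genes with the motif and for Mmp8 and Mmp27, which lack it, 5′ to 3′ on the strand of the gene with the motif in capitals.
Mmp13, chr9:7272414-7272513, plus strand: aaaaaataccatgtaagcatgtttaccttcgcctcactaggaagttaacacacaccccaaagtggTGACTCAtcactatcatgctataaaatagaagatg
Mmp12, chr9:7347274-7347373, plus strand: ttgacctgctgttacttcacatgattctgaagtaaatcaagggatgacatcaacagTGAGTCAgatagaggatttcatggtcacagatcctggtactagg
Mmp1b, chr9:7388027-7388126, minus strand: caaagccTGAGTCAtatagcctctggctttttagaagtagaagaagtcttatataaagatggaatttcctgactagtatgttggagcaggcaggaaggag
Mmp3, chr9:7445722-7445821, plus strand: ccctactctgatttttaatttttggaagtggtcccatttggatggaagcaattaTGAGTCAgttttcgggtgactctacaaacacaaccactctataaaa
Mmp10, chr9:7502242-7502341, plus strand: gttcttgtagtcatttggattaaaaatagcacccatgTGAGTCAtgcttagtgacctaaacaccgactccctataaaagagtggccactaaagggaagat
Mmp8, chr9:7558329-7558428, plus strand: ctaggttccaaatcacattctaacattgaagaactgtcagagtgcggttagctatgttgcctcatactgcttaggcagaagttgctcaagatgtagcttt
Mmp27, chr9:7571296-7571395, plus strand: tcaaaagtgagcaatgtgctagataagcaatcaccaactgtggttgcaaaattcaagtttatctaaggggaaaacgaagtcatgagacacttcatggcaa

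Of the 8 cluster genes with the motif, 6 were highest in JunBΔep replicate 0 (Mmp13, Mmp12, Mmp1b, Mmp3, Mmp1a and Mmp10), while Mmp20 stayed below 0.05 FPKM in all mice and Mmp7 was listed at 0. Mmp8, which lacks it in this window, was also highest in that mouse, and Mmp27 was not. Of all tested genes 29.7% were highest in that mouse, a share with another base, since the 8 include the untested Mmp1a, Mmp20 and Mmp7. Mmp13, Mmp1b and Mmp10 passed the filter only through that mouse. Timp1, Adamts1, Mmp11 and Mmp25, whose windows lack the motif, were highest there too. A match of letters is a description of the sequence, and binding was not measured here.

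**Figure D3:**
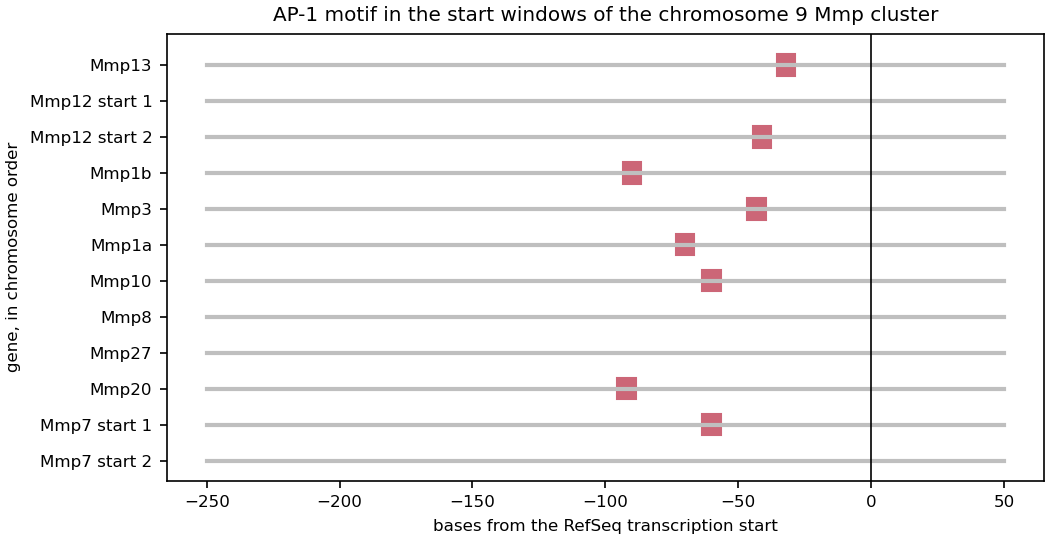
Place of the AP-1 motif (red boxes) in the RefSeq start windows of the 10 genes of the chromosome 9 Mmp cluster (rows, with a row per window where a gene has 2 starts), in bases from the transcription start. The 8 boxes all lie upstream of the start, beginning 35 to 95 bases before it, and the windows of Mmp8 and Mmp27 are empty.

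Among the collagenases, which make the opening cut in fibrillar collagen, Mmp13 showed the widest gap between mice. Mmp13, at 7272514 to 7283333 of chromosome 9, showed 0.0688, 0.0450 and 0.0711 FPKM in control skin and at 53.4, 0.0753 and 0.0714 FPKM in JunBΔep skin. All 3 JunBΔep values were above the controls, but those of replicates 1 and 2 exceeded the highest control by under 0.01 FPKM. The log2 fold change was 2.21 (SE 1.78, limma adjusted p = 0.722), and 0.03 without JunBΔep replicate 0. Mmp8, the collagenase of neutrophil granules, was at 2.85, 0.0589 and 0.0603 FPKM in control skin and at 25.3, 0 and 0.0974 FPKM in JunBΔep skin. Both replicate 0 mice were high in Mmp8, JunBΔep replicate 0 more so. Of the 8 neutrophil markers not listed at 0 in either mouse, 4 were highest in JunBΔep replicate 0 and 3 in control replicate 0, and the part of neutrophils in the Mmp8 values was not tested. For Mmp8 the log2 fold change was 0.96 (SE 1.66, limma adjusted p = 0.846) with all mice and -0.90 without JunBΔep replicate 0. Mmp1b reached 0.761 FPKM in JunBΔep replicate 0, while all other mice have it listed at 0. The related gene Mmp1a was at 0.0442 FPKM in the same mouse and likewise 0 elsewhere. How alike these genes are was not measured here, and any reads they share could have been split between them.

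The stromelysins, which have broad targets and activate other Mmp precursors, were likewise highest in JunBΔep replicate 0. Mmp3, at 7445822 to 7455972 of chromosome 9, showed 25.2, 8.14 and 15.3 FPKM in control skin and at 255, 6.14 and 28.6 FPKM in JunBΔep skin. The JunBΔep mice thus included the highest value, the lowest value and one just above the controls, and the log2 fold change was 1.27 (SE 1.30, limma adjusted p = 0.745), or -0.13 without JunBΔep replicate 0. Mmp3 made up 36.9% of the Mmp sum in JunBΔep replicate 0 and 5.36% to 14.6% in the other 5 mice. Mmp10 was at 0.0664, 0.0278 and 0.0122 FPKM in control skin and at 5.13, 0 and 0.0138 FPKM in JunBΔep skin, so it was near 0 in all mice but 1, and its log2 fold change was 1.08 (SE 0.95, limma adjusted p = 0.725). Mmp12, the elastase of macrophages, was at 1.05, 0.488 and 0.657 FPKM in control skin and at 4.89, 0.235 and 0.788 FPKM in JunBΔep skin. Its log2 fold change was 0.51 (SE 0.73, limma adjusted p = 0.814) and -0.32 without JunBΔep replicate 0. The macrophage markers, 8 of 8 found, summed to 235.1 to 490 FPKM in control skin and to 99.4 to 694 FPKM in JunBΔep skin. The highest of these sums, in JunBΔep replicate 0, was mostly Lyz2 at 556.7 FPKM, and 3 of the 8 markers were highest in that mouse while 4 were highest in control replicate 0. Mmp12 and Mmp1b overlap on opposite strands, and no source used here says how the authors' quantification treated strand.

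The gelatinases cut denatured collagen and basement membrane collagen, and were abundant in all mice. Mmp2, made mostly by fibroblasts, was at 94.96, 47.1 and 68.1 FPKM in control skin and at 182, 31.0 and 62.2 FPKM in JunBΔep skin. Mmp9, made mostly by leukocytes and activated keratinocytes, was at 20.3, 8.73 and 6.25 FPKM in control skin and at 36.8, 3.601 and 7.91 FPKM in JunBΔep skin. For both genes JunBΔep replicate 0 was the highest and JunBΔep replicate 1 the lowest of the 6 mice. The log2 fold changes were 0.07 for Mmp2 (SE 0.65, limma adjusted p = 0.976) and -0.00 for Mmp9 (SE 0.87, limma adjusted p = 0.999), with 95% intervals of -1.52 to 1.66 and -2.11 to 2.11, and became -0.61 and -0.89 without JunBΔep replicate 0.

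Of the other secreted enzymes, Mmp19, which is made in keratinocytes and vessels, was at 4.24, 2.54 and 3.05 FPKM in control skin and at 20.2, 2.04 and 6.77 FPKM in JunBΔep skin. JunBΔep replicates 0 and 2 were above the controls and replicate 1 was below them, with a log2 fold change of 0.97 (SE 0.74, limma adjusted p = 0.722), or 0.21 without JunBΔep replicate 0 and 1.73 without JunBΔep replicate 1. Mmp27 was at 4.06, 1.08 and 3.12 FPKM in control skin and at 0.823, 0.487 and 1.69 FPKM in JunBΔep skin. With all mice it was the only tested gene of the chromosome 9 cluster with a negative log2 fold change, -1.06 (SE 0.50, limma adjusted p = 0.716). Without JunBΔep replicate 0 its value was -1.01, and those of Mmp3, Mmp8, Mmp10 and Mmp12 were negative as well. Mmp28, also called epilysin for its expression in epidermis, was at 7.09, 2.94 and 4.07 FPKM in control skin and at 6.30, 2.92 and 6.07 FPKM in JunBΔep skin. Mmp11, called stromelysin-3 and cut to its active form by furin inside the cell, was at 5.17, 4.33 and 5.66 FPKM in control skin and at 8.31, 4.46 and 7.56 FPKM in JunBΔep skin. The groups overlapped for both genes, with log2 fold changes of 0.12 and 0.35, or -0.06 and 0.19 without JunBΔep replicate 0.

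Among the membrane-anchored enzymes no direction was shared. Mmp14, which activates the Mmp2 precursor at the cell surface together with Timp2, was at 81.9, 50.9 and 63.6 FPKM in control skin and at 77.6, 49.3 and 49.8 FPKM in JunBΔep skin. JunBΔep replicate 0 lay inside the control range of Mmp14 while holding the highest Mmp2, and the log2 fold change of Mmp14 was -0.16 (SE 0.27, limma adjusted p = 0.840, 95% interval -0.80 to 0.49), or -0.37 without JunBΔep replicate 0. Mmp15 was at 7.94, 6.70 and 8.17 FPKM in control skin and at 3.46, 6.33 and 13.1 FPKM in JunBΔep skin, which spread it to both sides of the controls. Mmp23 was at 11.97, 10.9 and 9.10 FPKM in control skin and at 7.81, 6.72 and 9.46 FPKM in JunBΔep skin, with a log2 fold change of -0.40 (SE 0.20, limma adjusted p = 0.722) that was -0.39 without JunBΔep replicate 0. Over the 6 tested members of this class 3 log2 fold changes were above 0 and 3 below, with a median of -0.06, or -0.17 without JunBΔep replicate 0.

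The Adamts enzymes that cut proteoglycans differed in direction. Adamts5, the main aggrecanase of mouse cartilage and a versican-cutting enzyme of skin, was at 9.70, 12.3 and 7.07 FPKM in control skin and at 6.21, 3.39 and 4.45 FPKM in JunBΔep skin. Every JunBΔep mouse was below every control, at 4.68 ± 1.43 FPKM (SD, n = 3 mice) against 9.67 ± 2.59 FPKM. On the log2 scale the difference for Adamts5 was -0.98 (SE 0.30, limma adjusted p = 0.411). Without JunBΔep replicate 0 it was -1.18 with a limma adjusted p of 0.256, and the adjusted p lay between 0.256 and 0.957 over the 17 other settings.

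Adamts1, which also cuts versican and lies 55.1 kb from Adamts5 on chromosome 16 (85794072 to 85803358, with Adamts5 at 85858415 to 85901370), went the other way. It was at 7.98, 8.94 and 11.6 FPKM in control skin and at 45.3, 12.8 and 12.1 FPKM in JunBΔep skin. JunBΔep replicates 1 and 2 exceeded the highest control only narrowly, and the log2 fold change was 0.99 (SE 0.53, limma adjusted p = 0.722), or 0.39 without JunBΔep replicate 0.

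Adamts15, another versican-cutting enzyme, was at 1.95, 1.67 and 2.59 FPKM in control skin and at 5.78, 3.09 and 3.09 FPKM in JunBΔep skin. All 3 JunBΔep mice were above every control, with means of 3.99 ± 1.55 FPKM (SD, n = 3 mice) and 2.07 ± 0.473 FPKM. The log2 fold change was 0.77 (SE 0.31, limma adjusted p = 0.656), and 0.50 without JunBΔep replicate 0. Adamts9 was at 1.09, 0.938 and 1.48 FPKM in control skin and at 1.21, 2.45 and 2.62 FPKM in JunBΔep skin, so that here replicates 1 and 2 were above the controls and replicate 0 was not. Its log2 fold change was 0.60 (SE 0.31, limma adjusted p = 0.722), and 0.88 without JunBΔep replicate 0 (limma adjusted p = 0.293, in a range of 0.293 to 0.957 over the 17 other settings). Adamts4, an aggrecanase known to be induced by inflammatory cytokines, was at 0.570, 0.302 and 0.967 FPKM in control skin and at 4.04, 0.840 and 0.670 FPKM in JunBΔep skin, high in 1 mouse only. Over the 7 proteoglycan-cutting enzymes 5 log2 fold changes were above 0 and 2 below, with a median of 0.60, or 0.39 without JunBΔep replicate 0.

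Of the 3 enzymes that trim the amino-terminal propeptide from fibrillar procollagens, 2 had a negative and 1 a positive log2 fold change. None passed the test. Adamts2, the main such enzyme of skin, was at 17.2, 9.10 and 10.2 FPKM in control skin and at 11.6, 3.71 and 5.86 FPKM in JunBΔep skin. JunBΔep replicates 1 and 2 were below every control and replicate 0 was within the control range. For Adamts2 it was -0.83 on the log2 scale (SE 0.45, limma adjusted p = 0.722), and -1.24 without JunBΔep replicate 0 (limma adjusted p = 0.370, in a range of 0.370 to 0.957 over the 17 other settings). Without JunBΔep replicate 1 it was -0.48. Adamts14 was at 10.3, 6.78 and 6.04 FPKM in control skin and at 1.31, 3.78 and 5.93 FPKM in JunBΔep skin. The groups did not overlap, although JunBΔep replicate 2 nearly reached the lowest control, and the log2 fold change was -1.12 (SE 0.50, limma adjusted p = 0.693), or -0.61 without JunBΔep replicate 0. Adamts3, the remaining member of this class, was below 1 FPKM in every mouse. Its log2 fold change was 0.40 (limma adjusted p = 0.722), or 0.41 without JunBΔep replicate 0. Col1a1, a chain of the collagen these enzymes process, was at 504.8, 73.9 and 308 FPKM in control skin and at 252.8, 130.1 and 80.6 FPKM in JunBΔep skin, in groups that overlapped.

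Of the other Adamts genes, Adamts13, which cuts von Willebrand factor, was at 8.54, 15.8 and 11.2 FPKM in control skin and at 11.5, 13.4 and 12.01 FPKM in JunBΔep skin. Its log2 fold change was 0.09 with a 95% interval of -0.52 to 0.70, or 0.14 without JunBΔep replicate 0, and the JunBΔep values all lay inside the control range. Adamts10, which binds fibrillin microfibrils, was at 9.58, 12.5 and 10.4 FPKM in control skin and at 4.46, 10.1 and 10.9 FPKM in JunBΔep skin. Adamts7, known for cutting cartilage oligomeric matrix protein, was at 1.05, 1.01 and 0.763 FPKM in control skin and at 2.40, 0.909 and 1.14 FPKM in JunBΔep skin. In both genes it was again JunBΔep replicate 0 that left the range of the other 5 mice, downward for Adamts10 and upward for Adamts7.

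The 18 members not described by the rule for abundance were at most at 2.16 FPKM, and 14 of them were below 1 FPKM in every mouse. Of the 11 that were tested, 6 were highest in JunBΔep replicate 1 or control replicate 2 (Adamts3, Adamts17, Adamts18, Adamts19, Adamts20 and Mmp16), a pattern noticed after the values had been seen. Over all 39 tested members these 2 mice were highest for 10.3% and 5.13%, beside 18.9% and 8.21% of all tested genes. Both mice belong to the higher number series of the sample titles. Adamts20, an enzyme needed for melanoblast survival and coat colour, was at 0.208, 0.212 and 1.08 FPKM in control skin and at 0.126, 1.96 and 0.329 FPKM in JunBΔep skin. These 2 mice also had the highest Adamts18 levels, 0.579 FPKM in control replicate 2 and 0.573 FPKM in JunBΔep replicate 1, against at most 0.172 FPKM in the other 4. Adamts16, below the filter, was at 0.167, 0.0969 and 0.140 FPKM in control skin and at 0.0270, 0.0284 and 0.0144 FPKM in JunBΔep skin, without overlap.

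The inhibitors showed 2 patterns. Timp2, the most abundant member in control skin and placed at 118162383 to 118217054 of chromosome 11, showed 210.3, 121.1 and 144.4 FPKM in control skin and at 75.2, 69.6 and 101.6 FPKM in JunBΔep skin. Each JunBΔep mouse was below every control, at 82.1 ± 17.1 FPKM (SD, n = 3 mice) against 158.6 ± 46.2 FPKM. The log2 fold change was -0.93 (SE 0.27, 95% interval -1.57 to -0.28, limma adjusted p = 0.340). Without JunBΔep replicate 0 it was -0.87 with a limma adjusted p of 0.549, and the adjusted p lay between 0.171 and 0.999 over the 17 other settings. Timp2 thus had the smallest unadjusted p of the 39 tested members and did not pass the adjustment over all genes.

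Timp1, the inhibitor that rises in many inflamed tissues, was at 3.04, 2.96 and 2.31 FPKM in control skin and at 107, 3.00 and 3.90 FPKM in JunBΔep skin. It made up 54.9% of all Timp transcript in JunBΔep replicate 0 and 1.02% to 2.20% in the other 5 mice. Its log2 fold change was 1.86 (SE 1.30, limma adjusted p = 0.722), and 0.27 without that mouse. Timp3, which is held in the matrix and also blocks several Adam and Adamts enzymes, was at 62.9, 69.2 and 63.0 FPKM in control skin and at 11.7, 55.8 and 67.8 FPKM in JunBΔep skin. Its controls were the tightest of the abundant members, at 65.1 ± 3.59 FPKM (SD, n = 3 mice), and JunBΔep replicate 0 alone was far below them. With all mice Timp3 had a log2 fold change of -0.86 (SE 0.65, limma adjusted p = 0.722), and it was -0.08 without JunBΔep replicate 0.

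Timp4, which is expressed in fat, heart and muscle, was at 22.4, 53.1 and 15.3 FPKM in control skin and at 0.821, 7.86 and 31.5 FPKM in JunBΔep skin, with a log2 fold change of -1.93 (SE 1.17, limma adjusted p = 0.722), or -0.72 without JunBΔep replicate 0 and -3.02 without JunBΔep replicate 2. The adipocyte markers, 5 of 5 found, summed to 1927, 3839 and 1210 FPKM in control skin and to 59.0, 2089 and 8949 FPKM in JunBΔep skin. The mouse lowest in Timp4 was thus the mouse lowest in adipocyte markers. At the other end they parted, with Timp4 highest in control replicate 1 and adipocyte markers highest in JunBΔep replicate 2. The skeletal muscle markers were highest in control replicate 1, at 23830 FPKM, and lowest in JunBΔep replicate 1, at 1669 FPKM. The part of fat or muscle in the Timp4 values was not tested. Timp1, Timp3 and Timp4 each lie inside a synapsin gene on the opposite strand.

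**Figure D4:**
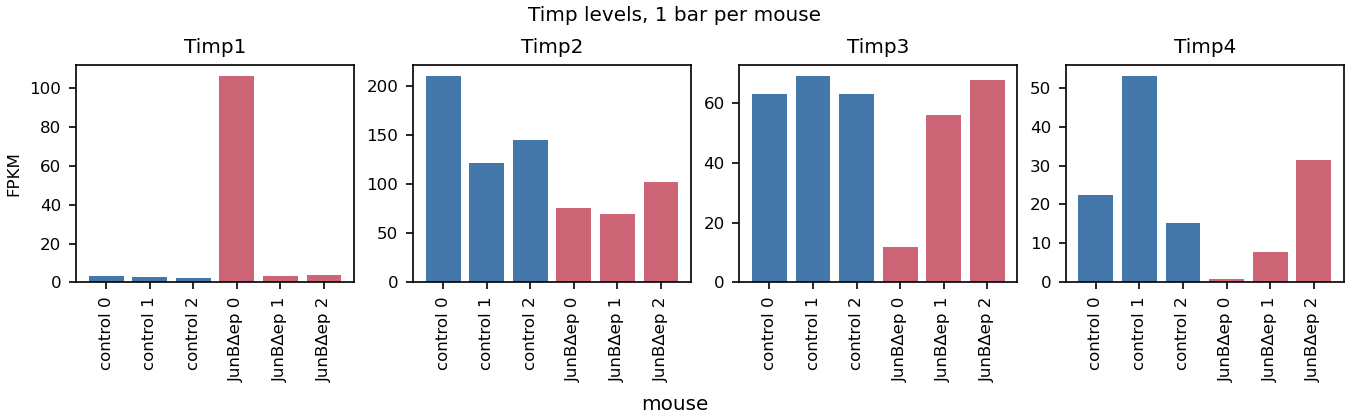
FPKM of Timp1, Timp2, Timp3 and Timp4 in each mouse (bars, controls blue, JunBΔep red, each panel from 0 on its own scale). Timp2 is lower in all 3 JunBΔep mice, while the Timp1 bar of 107 FPKM and the low Timp3 bar of 11.7 FPKM belong to JunBΔep replicate 0 alone. Timp4 is lowest in JunBΔep replicate 0, at 0.821 FPKM, and JunBΔep replicate 1, at 7.86 FPKM, is also below every control.

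Of the marker lists for other tissue in the skin pieces, skeletal muscle separated the groups. The 10 skeletal muscle markers summed to 17580 to 23830 FPKM in control skin and to 1669 to 3985 FPKM in JunBΔep skin, and 7 of the 10 passed the test as lower (limma adjusted p below 0.05). Without JunBΔep replicate 0 only Myh1 of the 10 did, while the median log2 fold change was -2.88 in place of -3.16. None of the 10 passed with a block on replicate number or number series, or without JunBΔep replicate 1 or any single control. The fibroblast markers, 8 of 8 found, summed to 1057 to 2676 FPKM in control skin and to 735.8 to 1624 FPKM in JunBΔep skin, with overlap. All 8 had a negative log2 fold change and 0 passed the test, with Dpt, a small matrix protein of the dermis, at 352.6, 329.9 and 249.5 FPKM in control skin and at 104.8, 123.0 and 216.1 FPKM in JunBΔep skin. The endothelial markers, 5 of 5 found, summed to 49.5 to 67.3 FPKM in control skin and to 27.3 to 103.6 FPKM in JunBΔep skin, also with overlap. The keratinocyte markers, 8 of 8 found, summed to 6646 to 10650 FPKM in control skin and to 6191 to 12010 FPKM in JunBΔep skin, and overlapped as well. The part of muscle and fibroblasts in the lower levels of Timp2, Adamts5 and Adamts2 was not tested.

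**Figure D5:**
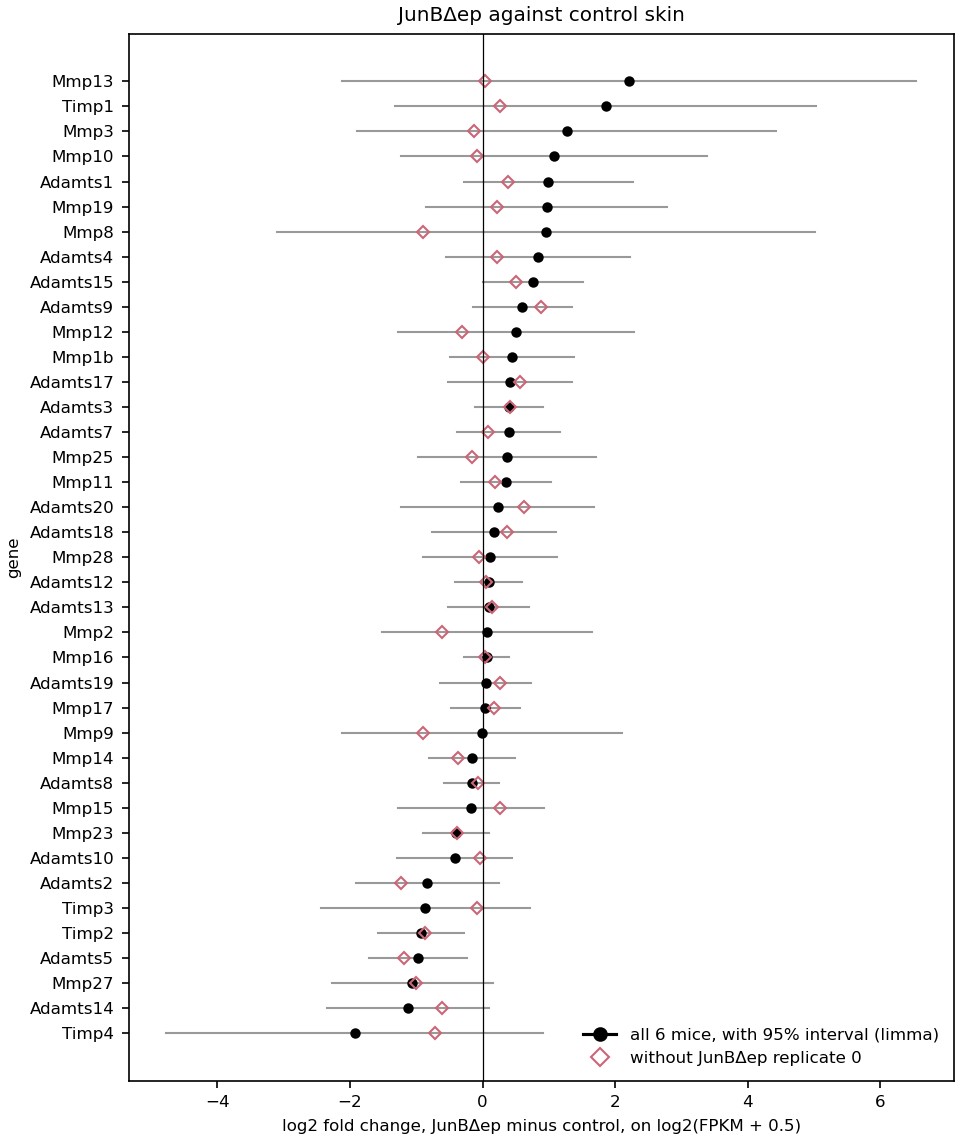
Log2 fold change (JunBΔep minus control, on log2(FPKM + 0.5)) of the 39 tested members with all 6 mice (black points with 95% limma intervals) and without JunBΔep replicate 0 (open diamonds), sorted by the former. The diamonds of Mmp13, Timp1, Mmp3 and Mmp10 fall back to near 0, those of Timp2, Adamts5 and Mmp27 stay close to their points, and the intervals of Timp2, Adamts5 and Adamts15 leave out 0.

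Genes that act around these proteases were read from 4 lists. None of the 13 genes for plasminogen activation and proprotein convertases, which switch on Mmp precursors, passed the test, and their median log2 fold change was 0.11, or -0.43 without JunBΔep replicate 0. Plaur, the urokinase receptor, was at 4.67, 2.61 and 2.48 FPKM in control skin and at 64.0, 2.54 and 3.97 FPKM in JunBΔep skin, and so was again high in 1 mouse. Pcsk5, a convertase, was at 1.47, 2.05 and 1.48 FPKM in control skin and at 5.79, 1.32 and 2.33 FPKM in JunBΔep skin.

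A list of Adamts-like proteins, which resemble Adamts enzymes but have no protease domain, and of other inhibitors such as Reck had the lowest median of the 4, -0.46 over 10 tested genes. None passed the test, while 4 of the 10 were lower at an unadjusted p below 0.05, beside 6.13% of all genes. Adamtsl2, a binder of fibrillin microfibrils, was at 1.07, 1.61 and 0.646 FPKM in control skin and at 0.0758, 0.0933 and 0.169 FPKM in JunBΔep skin, with a log2 fold change of -1.35 (SE 0.26, limma adjusted p = 0.101). Adamtsl5 was at 21.6, 24.0 and 18.6 FPKM in control skin and at 13.0, 15.2 and 12.9 FPKM in JunBΔep skin, a log2 fold change of -0.62 (SE 0.17, limma adjusted p = 0.286). Adamtsl4, mutated in inherited dislocation of the lens, was at 18.6, 21.4 and 17.6 FPKM in control skin and at 5.83, 7.88 and 16.0 FPKM in JunBΔep skin. All JunBΔep mice were below all controls for 5 of the 10 tested genes of the list, these 3 with Adamtsl3 and Reck, beside 9.16% of all genes. Adamtsl1 of the same family overlapped, with a log2 fold change of -0.02. The last 3 were named after their values were seen. Without JunBΔep replicate 0 the median of the list was -0.50.

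None of the 10 Adam genes, membrane proteases that shed ectodomains, passed the test, and their median log2 fold change was -0.08, or -0.28 without JunBΔep replicate 0. Adam12 was at 0.387, 0.270 and 0.664 FPKM in control skin and at 1.22, 0.659 and 0.971 FPKM in JunBΔep skin (log2 fold change 0.63, SE 0.25, limma adjusted p = 0.652), the only gene of the 10 with an unadjusted p below 0.05. Among 23 tested matrix substrates none passed, 8 log2 fold changes were above 0 and 15 below, and the median was -0.05, or -0.26 without JunBΔep replicate 0. Dcn, the proteoglycan decorin that coats collagen fibrils, was at 776.4, 394.6 and 539.9 FPKM in control skin and at 460.2, 199.6 and 335.7 FPKM in JunBΔep skin.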

How the data were processed

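The authors checked reads with FastQC, aligned them to mm9 with TopHat2 2.0.10, Bowtie 1.0.0 and SAMtools 0.1.19 in the nextpresso pipeline with iGenomes annotation, tested counts with DESeq2, and deposited a table of FPKM values. The libraries kept strand information (a TruSeq Stranded kit). Cufflinks is named among the authors' tools with no role, and no source used here says which tool made the FPKM values, how libraries were scaled or whether quantification used strand. The read counts were not analysed here.

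From the deposited FPKM values, log2(FPKM + 0.5) was compared with limma 3.58.1 (R 4.3.3), fitting a trend of variance on level without a block, over genes averaging 0.1 FPKM or more. Same-numbered replicates did not deviate together (correlations of 0.120, -0.228 and -0.426), so numbers were not used as pairs.

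Members with a mean of at least 1 FPKM, 5 FPKM in any mouse, or an unadjusted p below 0.05 were described by mouse. From the lists up to 3 genes were named, by smallest p or as defining markers, and 1 such gene is not reported here. Col1a1, Adamtsl1, Adamtsl3, Reck and the members below these levels were chosen after their values were seen. The members and lists were chosen with earlier results of these data known. Positions are from GENCODE vM1 on mm9, and start windows from RefSeq. Python 3.11.15, pandas 2.3.3 and matplotlib 3.10.9 were used. The alternatives were other pseudocounts, filters, scalings and limma settings, blocks on replicate number and on the number series of the sample names, each mouse left out, and both replicate 0 mice left out, the last chosen after seeing the data.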

Additional observations from a re-analysis of the deposited data

How the results depend on the processing

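No member passed the test in any of the 17 other settings. Over all genes 235 were called (all lower), and between 166 and 247 with other pseudocounts, filters, scalings and limma settings. The count was 0 with the replicate block, 0 with a block on the number series of the sample names, 0 to 254 with a mouse left out and 0 without both replicate 0 mice. It was 135 without JunBΔep replicate 0, 10 of them higher, 254 without JunBΔep replicate 2, and 0 without any of the other 4 mice. The numbers do not pair the mice, and the cause of the loss was not tested. The median log2 fold change of the members, 0.12, lay between 0.07 and 0.23 with all mice kept and between -0.033 (without JunBΔep replicate 0) and 0.31 (without control replicate 0) with a mouse left out. It was 0.11 without both.

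Of 279 fold changes of the 28 described members with all mice kept, 277 held their direction. Mmp9 turned to 0.61 with the number series block, which also moved Mmp13 to 3.30, Timp1 to 2.71 and Mmp8 to 2.10, and to 0.015 with a pseudocount of 1. With mice left out 173 of 191 held their direction. The others were in 9 members, whose values with 1 mouse left out ranged from -0.11 to 0.31 for Adamts13, -0.61 to 0.66 for Mmp2, -0.13 to 2.504 for Mmp3, -0.90 to 1.95 for Mmp8, -0.89 to 0.70 for Mmp9, -0.32 to 1.12 for Mmp12, -0.37 to 0.015 for Mmp14, -0.64 to 0.26 for Mmp15 and -0.14 to 0.44 for Mmp28. Among the members that kept their direction, leaving out JunBΔep replicate 1 or 2 moved by over 1.5 times Adamts2 (to -0.48), Adamts7 (to 0.60), Adamts10 (to -0.63), Mmp10 (to 1.67 and 1.65), Mmp11 (to 0.61), Mmp19 (to 1.73), Timp3 (to -1.32) and Timp4 (to -3.02). Leaving out JunBΔep replicate 0 did so for Adamts1, Adamts4, Adamts7, Adamts10, Adamts14, Adamts15, Mmp11, Mmp19, Timp1, Timp3 and Timp4. Without both replicate 0 mice the values were -0.067 for Adamts13, -0.36 for Mmp2, -0.14 for Mmp12 and 0.29 for Mmp15. No scaling moved the median of all genes by over 0.1 on the log2 scale. The number of reads is unknown, so the precision of low FPKM values cannot be given.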
